A study of Mus musculus with 2 samples.

Results

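The Hox genes of mouse muscle stem cells are described here as all 39 features, of 32286 in the matrices, whose symbol is Hox followed by a, b, c or d and a position number: 11 of the Hoxa cluster, 10 of Hoxb, 9 of Hoxc and 9 of Hoxd. Muscle stem (satellite) cells came from 2 muscles, biceps and recto femoris, taken 5 days post injury from Pax3GFP/+ animals, whose GFP reports the Pax3 locus. The genotype field of both samples reads wild-type. The GFP+ (PAX3+) and GFP- (PAX3-) fractions were each loaded at 20000 cells and sequenced as 1 single-cell library of transcript 3′ ends. Which biceps is meant, which muscle each cell came from, the number of mice and the kind of injury are not stated in the labels, so muscle, animal and sorted fraction cannot be told apart. With 1 library per fraction there was no test between fractions, and every interval below is a 95% interval of counting error only.

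Hox genes encode homeodomain transcription factors that give cells along the body and limb axes their regional identity. They lie in 4 clusters, and genes of the same position number in different clusters are paralogues. Low position numbers are used nearer the head and high numbers nearer the tail and the limb tip. Adult cells, muscle stem cells among them, keep part of the Hox pattern of the place where they arose, which is called positional memory. HOX proteins bind DNA together with PBX and MEIS partners, Trithorax proteins such as the Kmt2a product keep Hox genes active, and Polycomb proteins such as the Ezh2 product keep them silent.

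Values are UMIs (unique molecular identifiers, 1 per captured transcript) and CPM (UMIs scaled to a total of 1000000 UMIs over the same cells). With 3′ counting a transcript counts once, so CPM is not scaled by length. The GFP+ library kept 604 barcodes with a median of 18534.5 UMIs and the GFP- library 2683 with a median of 14663, from totals of 13928952 and 49709323 UMIs, and 2 kept barcodes occurred in both. Cells were grouped by variable genes, chosen without Pax3, the Hox genes and the other genes listed for this question. This gave 519 GFP+ and 2468 GFP- myogenic cells, 110 mural-like cells led by Rgs5 (all GFP-), and 76 GFP+ and 57 GFP- macrophage-like cells led by Lyz2. In the myogenic cells Pax7 stood at 209.8 and 147.9 CPM and Des at 1016 and 1027 CPM in the GFP+ and GFP- libraries, and Lyz2 at 6.05 and 2.68 CPM. Pax3, the gene whose locus carries the reporter, stood at 22.3 CPM in GFP+ myogenic cells against 5.14 CPM in the GFP- ones, for a ratio of 4.34 (3.59 to 5.24).

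On the GRCm38 assembly the Hoxa cluster spans chr6:52155590-52260880 (- strand), and on the + strand Hoxb spans chr11:96194316-96368256, Hoxc chr15:102921103-103036852 and Hoxd chr2:74668310-74765142 (GENCODE M21). The position-4 genes show how differently members of 1 paralogue group were used in these cells: myogenic cells gave 79 GFP+ and 378 GFP- UMIs of Hoxc4, 25 and 28 of Hoxb4 and 0 and 9 of Hoxd4, while mural-like cells held 7, 21 and 0. Hoxb8 gave UMIs in mural-like cells and none in myogenic cells. For these 4 genes the 250 bases before the RefSeq start (GRCm38.p6) are shown 5′ to 3′ with each CG pair, the site of DNA methylation, in capitals. The Hoxb4 and Hoxb8 windows end where the GENCODE M21 genes begin. Those of Hoxc4 and Hoxd4 lie inside the GENCODE M21 genes, which begin at chr15:103018934 and chr2:74711929. The sequence before those more distant starts is not shown or counted.
Hoxc4, chr15:103034145-103034394 (strand +): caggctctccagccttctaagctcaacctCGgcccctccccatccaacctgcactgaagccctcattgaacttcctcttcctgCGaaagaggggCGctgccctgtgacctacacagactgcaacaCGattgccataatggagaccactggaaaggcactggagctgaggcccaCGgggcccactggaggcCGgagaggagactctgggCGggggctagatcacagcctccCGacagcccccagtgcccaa
Hoxb4, chr11:96318017-96318266 (strand +): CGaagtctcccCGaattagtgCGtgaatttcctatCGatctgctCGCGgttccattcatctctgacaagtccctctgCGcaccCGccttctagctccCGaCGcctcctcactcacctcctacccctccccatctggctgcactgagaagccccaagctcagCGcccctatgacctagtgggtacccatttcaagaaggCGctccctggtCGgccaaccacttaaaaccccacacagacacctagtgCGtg
Hoxd4, chr2:74721728-74721977 (strand +): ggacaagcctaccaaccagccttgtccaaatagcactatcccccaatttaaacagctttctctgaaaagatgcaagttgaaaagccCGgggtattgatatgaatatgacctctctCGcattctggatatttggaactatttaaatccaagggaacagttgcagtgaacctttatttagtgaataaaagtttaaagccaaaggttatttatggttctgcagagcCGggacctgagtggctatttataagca
Hoxb8, chr11:96281655-96281904 (strand +): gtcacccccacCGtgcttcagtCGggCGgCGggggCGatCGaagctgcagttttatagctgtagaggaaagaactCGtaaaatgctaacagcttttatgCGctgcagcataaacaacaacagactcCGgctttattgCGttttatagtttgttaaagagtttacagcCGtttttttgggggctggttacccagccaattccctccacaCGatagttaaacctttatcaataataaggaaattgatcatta
These windows hold 8 CG pairs for Hoxc4, 14 for Hoxb4, 3 for Hoxd4 and 12 for Hoxb8. Of all 32851 promoter windows of this length, 43.0%, 29.4%, 71.0% and 33.5% hold at least as many. The number of CG pairs did not follow the order of the myogenic UMIs: Hoxb8 and Hoxb4 have more pairs than Hoxc4 and fewer UMIs. A PBX-HOX type motif, TGATNNAT on either strand, occurs once in the Hoxb8 window and in none of the other 3, and in 7.68% of all windows and 16.7% of the 24 Hox windows. A posterior HOX type motif, TTTATNG, occurs 3 times in the Hoxb8 window and once in that of Hoxd4, and in 9.81% of all and 8.33% of Hox windows. A MEIS type motif, TGACAG, is in none of the 4, and in 15.9% of all and 8.33% of Hox windows. Methylation was not measured in these libraries.

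Myogenic cells of both libraries expressed Hoxa and Hoxc genes of middle and high position and almost no Hoxb or Hoxd. Summed over the 39 genes, Hox transcripts stood at 204 CPM (196 to 213) in GFP+ and 233 CPM (229 to 238) in GFP- myogenic cells. Hoxc genes gave 54.4% of these UMIs in GFP+ and 63.0% in GFP- cells, Hoxa genes 41.9% and 34.5%, Hoxb genes 3.38% and 1.20%, and Hoxd genes 0.278% and 1.36%. Positions 9 to 13 made up 53.3% (51.2 to 55.4) of the Hox UMIs in GFP+ and 59.1% (58.2 to 60.1) in GFP- cells, positions 5 to 8 35.3% and 32.7%, and positions 1 to 4 11.4% (10.1 to 12.8) and 8.18% (7.65 to 8.74).

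Of the 39 genes, 22 had at least 20 UMIs over all kept barcodes, 12 had 1 to 19, and 5 had none: Hoxb1, Hoxb13, Hoxc12, Hoxd12 and Hoxd13. In myogenic cells 10 genes were at 0, those 5 and Hoxb5 to Hoxb9, where the interval of a count of 0 reaches 0.349 CPM in the GFP+ and 0.0874 CPM in the GFP- cells. The Hoxb genes that were found there were the adjacent Hoxb2, Hoxb3 and Hoxb4. Among the Hoxd genes Hoxd8 gave 6 and 74 UMIs and Hoxd9 gave 0 and 45, and of the rest Hoxd4 had 9 UMIs, all GFP-, and Hoxd1, Hoxd3, Hoxd10 and Hoxd11 had 1, 1, 2 and 2, also all GFP-. Hoxa13 and Hoxc13, the most distal members with any UMI, had 3 and 0 UMIs in GFP+ and 6 and 8 in GFP- myogenic cells.

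**Figure D1:**
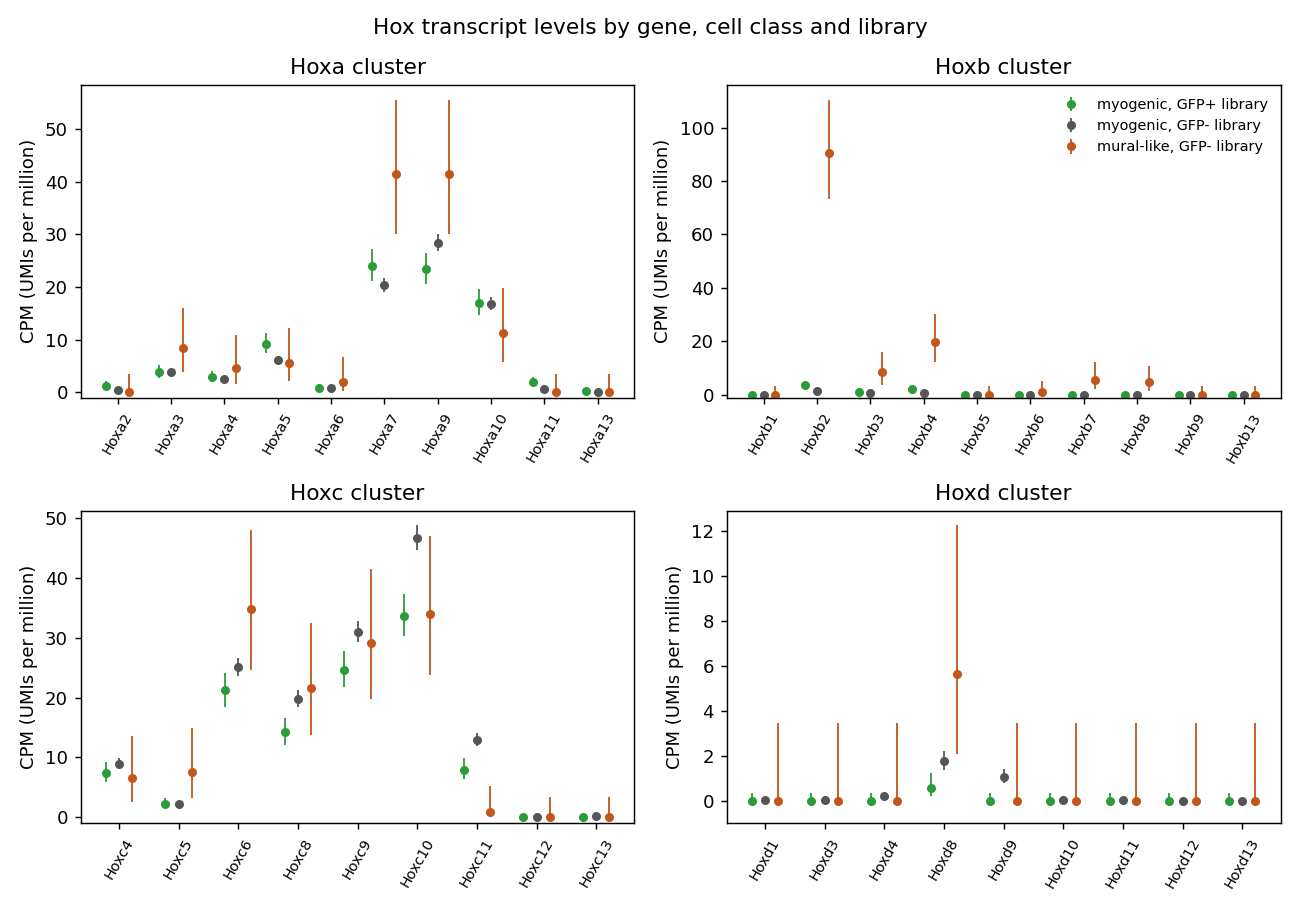
CPM of 38 Hox genes in position order, 1 panel per cluster, in GFP+ myogenic, GFP- myogenic and GFP- mural-like cells; points are library sums and bars 95% counting intervals. Myogenic points are highest at Hoxa7, Hoxa9, Hoxa10 and Hoxc6 to Hoxc10 and lie near 0 across Hoxb and Hoxd, while the mural-like point for Hoxb2 stands at 90.4 CPM.

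Within the Hoxc cluster, whose genes pattern the trunk and hindlimb levels, Hoxc10 had the most UMIs in both libraries. It stood at 33.7 CPM (356 UMIs) in GFP+ and 46.6 CPM (1968 UMIs) in GFP- cells, a ratio of 0.72 (0.64 to 0.81). Hoxc11, its neighbour on the distal side, stood at 7.94 and 12.99 CPM, a ratio of 0.61 (0.48 to 0.77). Hoxc9, at 24.6 and 31.0 CPM, had a ratio of 0.79 (0.69 to 0.91), Hoxc8, at 14.2 and 19.8 CPM, one of 0.72 (0.60 to 0.85), and Hoxc6, at 21.2 and 25.1 CPM, one of 0.84 (0.73 to 0.98). All 5 were lower in the GFP+ library with an interval below 1, although Hoxc6 came to 1.02 with the myogenic clusters weighted equally. Hoxc4, at 7.47 and 8.96 CPM, and Hoxc5, at 2.17 and 2.28 CPM, had intervals that include 1.

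Within the Hoxa cluster the libraries differed in no common direction, and by less than 1.5-fold for the genes with the most UMIs, Hoxa7, Hoxa9 and Hoxa10. Hoxa7 stood at 24.0 and 20.3 CPM, Hoxa9 at 23.5 and 28.4 CPM and Hoxa10 at 17.0 and 16.8 CPM in GFP+ and GFP- cells, with ratios of 1.18 (1.02 to 1.36), 0.83 (0.72 to 0.95) and 1.01 (0.85 to 1.19). Hoxa5, a mid-position gene, stood at 9.17 and 6.12 CPM, a ratio of 1.5 (1.18 to 1.90) that lay just under the 1.5-fold rule used below. Hoxa3 and Hoxa4 had ratios of 0.997 (0.69 to 1.42) and 1.15 (0.74 to 1.74), and Hoxa6, with 9 and 37 UMIs, one of 0.97 (0.41 to 2.05). At the low end of expression Hoxa2 and Hoxa11 were higher in the GFP+ library, with 13 and 16, and 20 and 25 UMIs, and ratios of 3.24 (1.43 to 7.19) and 3.19 (1.68 to 5.98).

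The proximal Hoxb genes were rare, and Hoxb2 and Hoxb4 were more frequent in the GFP+ library. Hoxb2, a gene of hindbrain and upper trunk identity in the embryo, had 38 GFP+ and 67 GFP- UMIs, a ratio of 2.26 (1.48 to 3.42), and Hoxb4 had 25 and 28 UMIs, a ratio of 3.56 (1.99 to 6.34). Hoxb3, between them, had 10 and 23 UMIs and a ratio of 1.73 (0.74 to 3.79). In droplets of at most 100 UMIs, taken as empty, Hoxb2 stood at 5.72 CPM in the GFP+ and 2.38 CPM in the GFP- library (8 UMIs each), above its myogenic levels. Hoxb4 stood there at 0.716 and 0.297 CPM (1 UMI each), below its myogenic levels. The part of free RNA in the Hoxb counts was not tested. Hoxd8 and Hoxd9 went the other way: Hoxd8 had a ratio of 0.32 (0.12 to 0.74), and Hoxd9 had 0 UMIs in the GFP+ library. With 3 counts over all the GFP+ cells as the floor, Hoxd9 came out 3.76-fold lower there. The counting interval of its ratio ended at 0.34, which is a smaller difference than that fold.

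By a fixed size rule, at least 1.5-fold with a mean of at least 2 CPM over both libraries, 14 of the 39 genes could be counted. Of these, 1 was higher in GFP+ cells (Hoxb2) and 1 lower (Hoxc11). Hoxb2 stood at 1.59 CPM in GFP- cells and passed the filter only through its GFP+ level, 3.59 CPM. Over all 11065 genes that passed the same filter 5.21% were higher and 4.15% lower, and the median log2 ratio was -0.15 for the 14 Hox genes and -0.09 for all genes. Those 14 leave out Hoxb4, Hoxd8 and Hoxd9, whose mean was under 2 CPM. Myogenic cluster 6 (led by Erfe and Chrdl2, 121 GFP+ and 49 GFP- cells, median 5296 UMIs) was shallow and mostly GFP+. Without it Hoxa5 joined Hoxb2 among the higher genes, against 3.85% of all genes, and Hoxc11 remained the lower one, against 3.68%.

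Of the noncoding RNAs of the clusters, Hotairm1 and Hoxb3os were higher in the GFP+ library. Hotairm1, transcribed from the proximal end of the Hoxa cluster, stood at 19.8 CPM in GFP+ myogenic cells and at 8.04 CPM in GFP- ones, a ratio of 2.46 (2.06 to 2.93). Hoxb3os, which overlaps Hoxb2 and Hoxb3 on the other strand, had 56 and 54 UMIs, a ratio of 4.14 (2.80 to 6.13). Hotair, from the distal Hoxc cluster, had 14 and 93 UMIs, and its interval included 1 (ratio 0.60, 0.32 to 1.06). Of the 11 noncoding RNAs of the list found among the features, 3 passed the 2 CPM filter, 2 were at least 1.5-fold higher (Hotairm1 and Hoxb3os) and none was lower, against 5.21% and 4.15% of all genes. Hoxb3os, at 1.28 CPM in GFP- cells, passed only through its GFP+ level. How the counting treated strand is not stated in the labels, so reads of these RNAs and of the Hox genes they overlap, 14 of the 39 by annotation, may not be fully told apart. On the same strand Hoxc10 shares 8.70% of its exon bases with Hoxc5, and Hoxd4 13.2% of its own with Hoxd3.

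**Figure D2:**
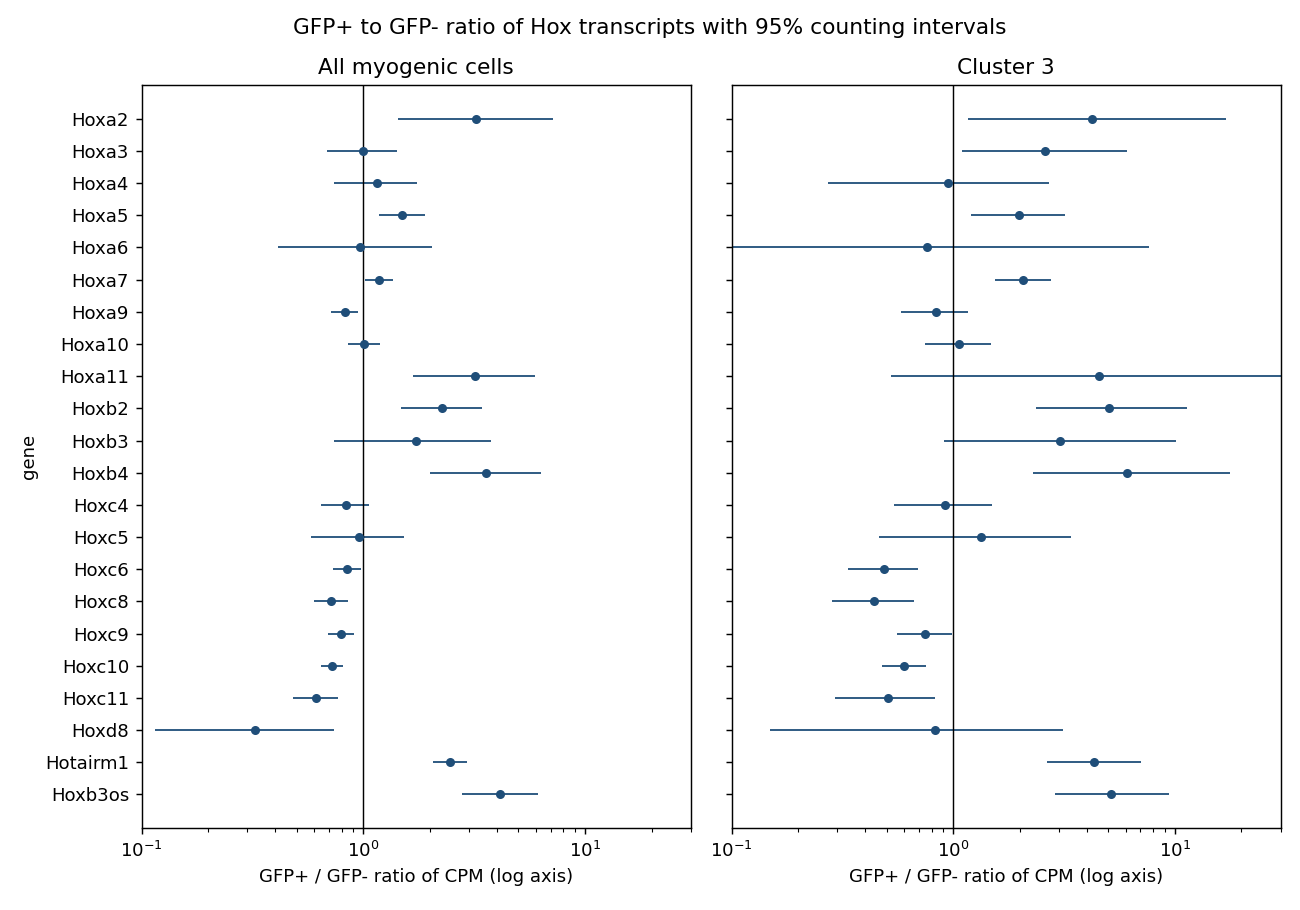
GFP+ to GFP- ratio of CPM (log axis) for the reported Hox genes with at least 20 myogenic UMIs and UMIs in both libraries, and for Hotairm1 and Hoxb3os, in all myogenic cells (left) and in cluster 3 alone (right); bars are 95% counting intervals, cut at the axis limits. Points for Hoxc6 to Hoxc11 lie left of 1, and those for Hoxb2, Hoxb4, Hotairm1 and Hoxb3os right of 1, in both panels.

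Cofactors and chromatin regulators of Hox genes were counted by the same 1.5-fold rule, which 5.21% of all genes passed as higher and 4.15% as lower. Among HOX cofactors Meis1 stood at 3.03 CPM (32 UMIs) in GFP+ and 6.71 CPM (283 UMIs) in GFP- cells, a ratio of 0.45 (0.30 to 0.65), and it was the 1 lower gene of 9 that passed the filter, with none higher. Pbx3 had a ratio of 0.88 (0.72 to 1.07), and Meis2 gave 3 and 25 UMIs. Of 10 Trithorax genes 2 were higher, Kmt2d at 1.86 (1.65 to 2.09) and Kdm6b at 1.62 (1.51 to 1.74), and none was lower, with Kmt2a at 0.94 (0.87 to 1.01). Of 17 Polycomb genes that passed, 1 was lower, Ezh2 at 0.66 (0.60 to 0.73), and none was higher. Among the other positional genes Six2 was higher, at 24.3 and 8.04 CPM, and Tbx3 lower, at 1.51 and 3.32 CPM, with 14 that passed the filter.

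Limb-level genes outside the Hox clusters were close in both libraries or at 0. Tbx4, a hindlimb-associated T-box gene, stood at 6.33 CPM (67 UMIs) in GFP+ myogenic cells and at 6.35 CPM (268 UMIs) in GFP- ones, a ratio of 0.997 (0.75 to 1.31). Tbx5, its forelimb-associated paralogue, and Pitx1, a hindlimb regulator, had 0 UMIs in myogenic cells of both libraries.

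Hox levels also varied with the state of the myogenic cells. In GFP- cells Hoxc transcripts were lowest in the differentiating clusters: summed Hoxc stood at 183 CPM (173 to 193) in cluster 3 (led by Chodl, Itih5 and Gpc3, with Pax7 at 300.1 CPM over both libraries), at 82.0 CPM in cluster 1 (Myog, Mymk) and at 57.8 CPM in cluster 11 (Myh3, Acta1). Hoxc10 in GFP- cells went from 64.5 CPM (480 UMIs) in cluster 3 and 58.5 CPM in cluster 4 (Nrk, Dcx) to 20.5 CPM in cluster 1 and 15.3 CPM in cluster 11. Hoxa7 differed less, from 16.1 CPM in cluster 3 to 26.9 CPM in cluster 5 (cycling cells with histone genes and Top2a), with 21.2 CPM in cluster 11. Hoxa9 was highest in cluster 5, at 46.8 CPM (325 UMIs), and lowest among clusters 0 to 5, 10 and 11 in cluster 11, at 12.2 CPM (31 UMIs). The GFP+ library gave for Hoxa9 45.2 CPM in cluster 5 and 4.78 CPM (2 UMIs) in cluster 11. Its Hoxc sums were 72.5 CPM in cluster 1 and 50.2 CPM in cluster 11, near the 51.6 CPM of the shallow cluster 6. Cells of cluster 5 had a median of 27222 UMIs and those of cluster 11 one of 22138, against 12404 in cluster 3 and 16894 in cluster 1.

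**Figure D3:**
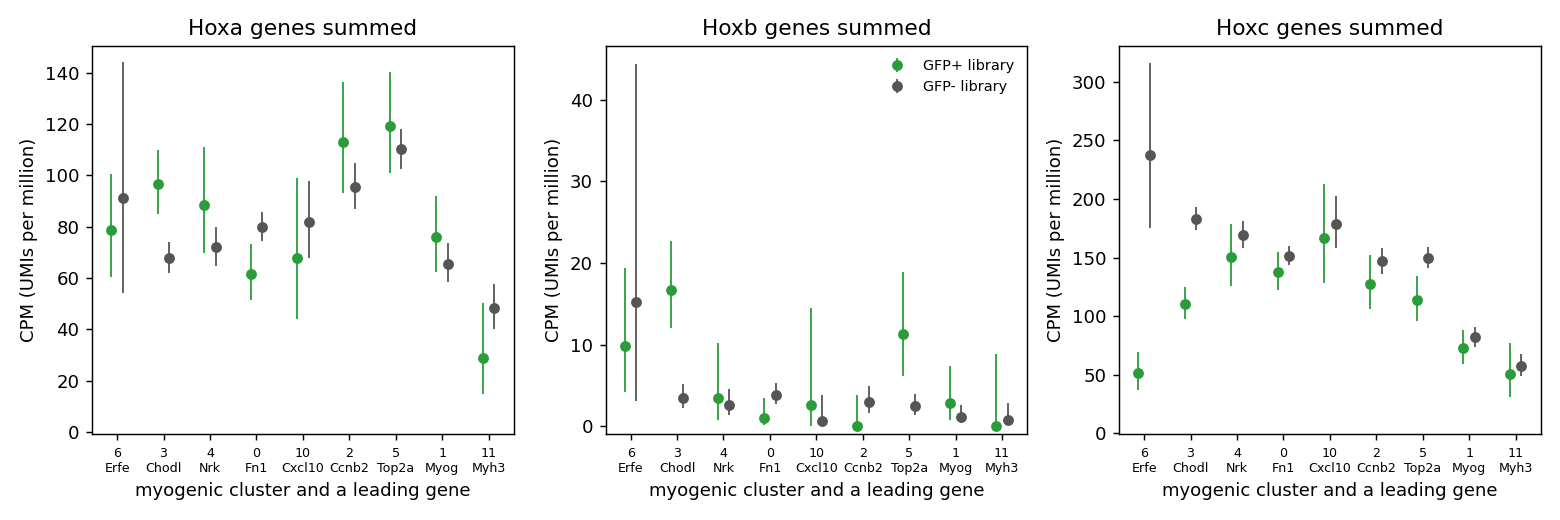
Summed CPM of the Hoxa, Hoxb and Hoxc genes in each myogenic cluster (named by number and a leading gene) by library; bars are 95% counting intervals. Hoxc falls toward the Myog and Myh3 clusters in both libraries, and the Hoxc intervals of the libraries lie apart in clusters 3 (111 and 183 CPM in GFP+ and GFP- cells), 5 (114 and 150 CPM) and 6 (51.6 and 238 CPM), with Hoxb apart in clusters 3 and 5. The Hoxa intervals lie apart in opposite directions in clusters 0 (61.6 and 80.0 CPM) and 3 (96.8 and 67.9 CPM).

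The difference between libraries was uneven over the clusters and was large in cluster 3, the cluster with the most cells (137 GFP+ and 605 GFP-). Summed Hoxc there stood at 111 CPM (97.9 to 125) in GFP+ and 183 CPM in GFP- cells, summed Hoxa at 96.8 and 67.9 CPM, and summed Hoxb at 16.7 (12.01 to 22.7) and 3.50 CPM (2.28 to 5.12). In cluster 0 (Fn1, Spp1) the Hoxc sums were 138 and 152 CPM and in cluster 4 150 and 170 CPM, with overlapping intervals, and Hoxc10 stood at 48.0 and 48.2 CPM in cluster 0. Summed Hoxa went the other way in cluster 0 than in cluster 3, at 61.6 CPM (51.4 to 73.3) in GFP+ and 80.0 CPM (74.45 to 85.9) in GFP- cells. Summed Hoxb was also lower in GFP+ cells there, with 2 and 37 UMIs (0.971 and 3.87 CPM). In cluster 2 it had 0 and 14 UMIs, and in both clusters the Hoxb intervals overlapped. Cluster 5 differed in the same sense as cluster 3: its Hoxc sums were 114 CPM (95.8 to 134) and 150 CPM (141 to 159), and its Hoxb sums 11.3 CPM (6.17 to 18.9) and 2.45 CPM (1.43 to 3.92). Hoxb2, with 7 UMIs in each library, had a ratio of 5.60 (1.68 to 18.7) there, and Hoxb4, with 6 and 8, one of 4.20 (1.20 to 13.8). In the shallow cluster 6 the gap in Hoxc was wider, 51.6 CPM (42 UMIs) and 238 CPM (47 UMIs).
Gene by gene in cluster 3, Hoxa7 stood at 33.5 CPM (82 UMIs) in GFP+ and 16.1 CPM (120 UMIs) in GFP- cells, a ratio of 2.08 (1.55 to 2.77), and Hoxa5 at 12.25 and 6.19 CPM, a ratio of 1.98 (1.21 to 3.21). Hoxb2 had 20 and 12 UMIs, a ratio of 5.06 (2.36 to 11.4), and Hoxb4 14 and 7 UMIs, a ratio of 6.07 (2.29 to 17.8). In the other direction Hoxc6 stood at 15.1 and 31.1 CPM (0.49, 0.33 to 0.69), Hoxc8 at 11.02 and 25.01 CPM (0.44, 0.28 to 0.66), Hoxc10 at 38.8 and 64.5 CPM (0.60, 0.48 to 0.75) and Hoxc11 at 7.76 and 15.3 CPM (0.51, 0.29 to 0.83). By the 1.5-fold rule 5 of the 15 Hox genes that passed the filter were higher (Hoxa3, Hoxa5, Hoxa7, Hoxb2 and Hoxb4), against 7.87% of all genes, and 4 were lower (Hoxc6, Hoxc8, Hoxc10 and Hoxc11), against 7.57%. Hoxa3, Hoxb2 and Hoxb4 were under 2 CPM in GFP- cells of the cluster and passed the filter only through their GFP+ level. Cluster 3 was singled out after its values were seen, and the Hox genes had no part in forming it.

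The lower Hoxc sum of GFP+ cells in cluster 3 came with more cells that had no Hoxc UMI at all. After each cell was thinned to 10000 UMIs, 68 of 124 GFP+ cells had no Hoxc UMI (54.8%, 45.7 to 63.8) against 81 of 430 GFP- cells (18.8%, 15.3 to 22.9). The mean was 1.03 Hoxc UMIs per GFP+ cell with a variance of 2.21, and 1.80 per GFP- cell with a variance of 2.15. The GFP+ cells that had Hoxc were not all low: 11, 7 and 4 of them had 3, 4 and 5 Hoxc UMIs, against 67, 31 and 8 of the GFP- cells. Before thinning, 68 of 137 GFP+ and 110 of 605 GFP- cells lacked Hoxc, although the GFP+ cells were the deeper ones, with a median of 17503 UMIs against 11789. In cluster 0 the thinned shares without Hoxc were 27.8% (20 of 72) and 22.5% (108 of 481). Hoxa behaved the other way in cluster 3, where 49 of 124 GFP+ cells (39.5%) and 246 of 430 GFP- cells (57.2%) had no Hoxa UMI.

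**Figure D4:**
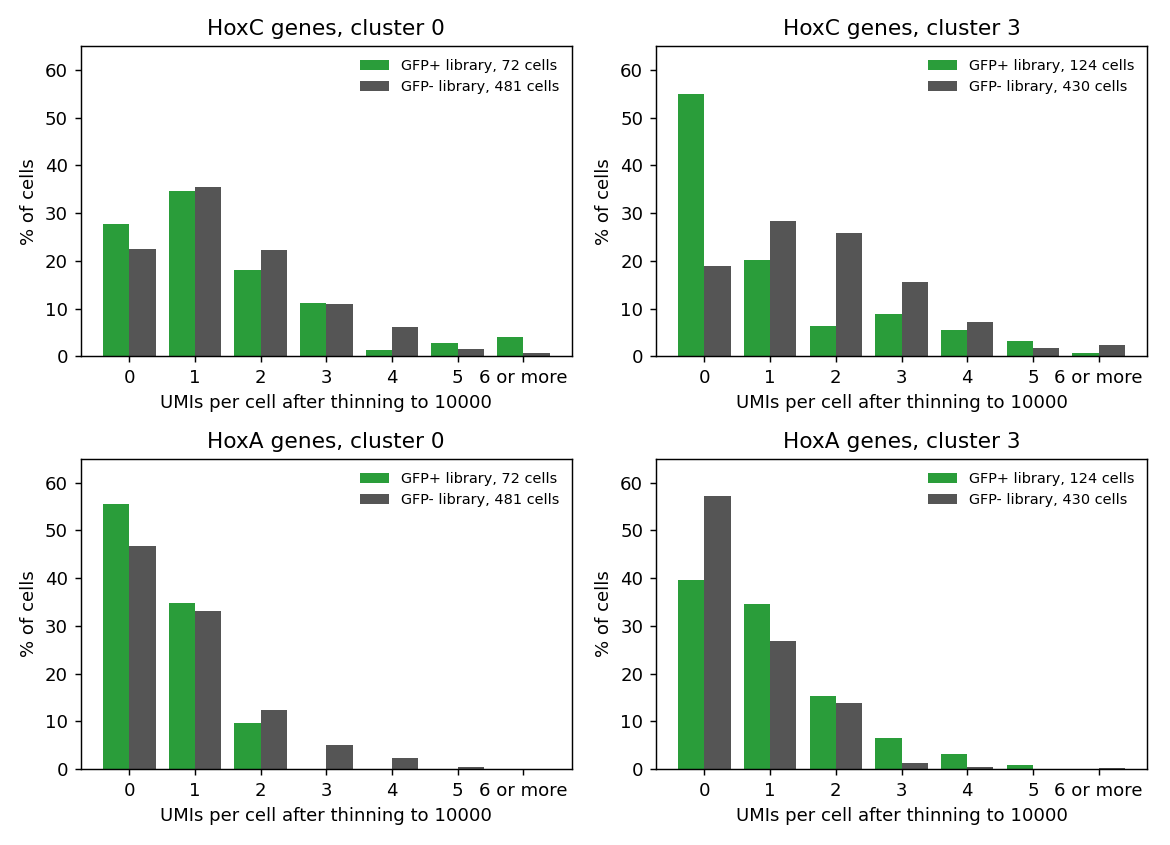
Share of cells (%) by the number of Hoxc (top) or Hoxa (bottom) UMIs per cell after thinning to 10000 UMIs, in clusters 0 and 3, by library. In cluster 3 the largest group of GFP+ cells has 0 Hoxc UMIs (54.8%), whereas most GFP- cells have 1 or more.

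In GFP+ cells of cluster 3 most UMIs of the proximal Hoxb genes lay in cells without Hoxc. Among GFP+ cells with at least 10000 UMIs, the 59 without a Hoxc UMI held 18 UMIs of Hoxb2, 6 of Hoxb3, 14 of Hoxb4 and 28 of Hoxb3os, and the 65 with Hoxc held 1, 0, 0 and 3. Hoxa7 stood at 54.3 CPM in the cells without and 17.6 CPM in the cells with Hoxc, a ratio of 3.07 (1.86 to 5.23), whereas Hoxa10 stood at 19.04 and 19.18 CPM, a ratio of 0.99 (0.52 to 1.86). The median depth of the 2 sets was close, 17359 and 19154 UMIs. Pax7, the satellite cell factor, stood at 327 and 329 CPM, Pax3 at 35.2 and 26.9 CPM (1.31, 0.80 to 2.14), and Tbx4 had 8 and 5 UMIs. Myf5, also a marker of satellite cells and myoblasts, was higher in the cells without Hoxc, at 568 and 460 CPM (1.23, 1.10 to 1.38). In the GFP- library the 55 cells without Hoxc held 3, 4, 2 and 5 UMIs of Hoxb2, Hoxb3, Hoxb4 and Hoxb3os and the 375 cells with Hoxc 3, 0, 2 and 8, while Hoxa7 stood at 18.0 and 14.7 CPM (1.23, 0.62 to 2.22). Myf5 went the other way in that library, at 253 CPM without and 346 CPM with Hoxc (0.73, 0.62 to 0.85).

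Grouping by Hoxb UMIs shows the same cells and counts from the other side and is not separate evidence. GFP+ cells of cluster 3 with 0, 1 and 2 or more UMIs of Hoxb2, Hoxb3, Hoxb4 and Hoxb3os together numbered 109, 12 and 16, and 40.4%, 75.0% and 93.8% of them had no Hoxc UMI. Their summed Hoxc stood at 132, 39.9 and 17.1 CPM and their summed Hoxa at 86.4, 125 and 147 CPM. GFP- cells numbered 580, 14 and 11, with 16.9%, 42.9% and 54.5% lacking Hoxc and Hoxc sums of 187, 86.5 and 98.9 CPM. Myf5 stood at 755 CPM in the GFP+ cells with such Hoxb UMIs and 441 CPM in those without (1.71, 1.51 to 1.94). In GFP- cells it stood at 320 and 336 CPM (0.95, 0.77 to 1.17). The Hoxb UMIs were not those of 1 cell: in GFP+ cluster 3 Hoxb2 was found in 13 cells, Hoxb4 in 6, Hoxb3 in 5 and Hoxb3os in 18, with at most 4, 6, 2 and 6 UMIs in a cell. Both Hoxb2 and Hoxb4 were seen in 3 cells. Of the 18 cells with Hoxb3os, 7 also had a UMI of Hoxb2, Hoxb3 or Hoxb4, and in GFP- cells it was 5 of 16. The remaining Hoxb3os cells count as cells with Hoxb UMIs through this noncoding RNA alone.
In myogenic cells outside clusters 3 and 6 the GFP+ library showed the same direction on few cells, 14 of 18 cells with such Hoxb UMIs (77.8%, 52.4 to 93.6) and 71 of 223 without (31.8%, 25.8 to 38.4) lacking Hoxc after thinning to 10000 UMIs. Unthinned, as in the cluster 3 shares above, it was 8 of 18 (44.4%, 21.5 to 69.2) and 38 of 243 (15.6%, 11.3 to 20.8). The GFP- library did not: 21 of 69 cells with Hoxb UMIs (30.4%, 19.9 to 42.7) and 438 of 1532 without (28.6%) lacked Hoxc after thinning, and 17.9% and 18.1% unthinned. The cells with and without Hoxc, or Hoxb, were picked by their counts, so these values describe the cells and carry no test. Whether such cells came from 1 muscle or 1 mouse cannot be told apart from the labels used here.

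**Figure D5:**
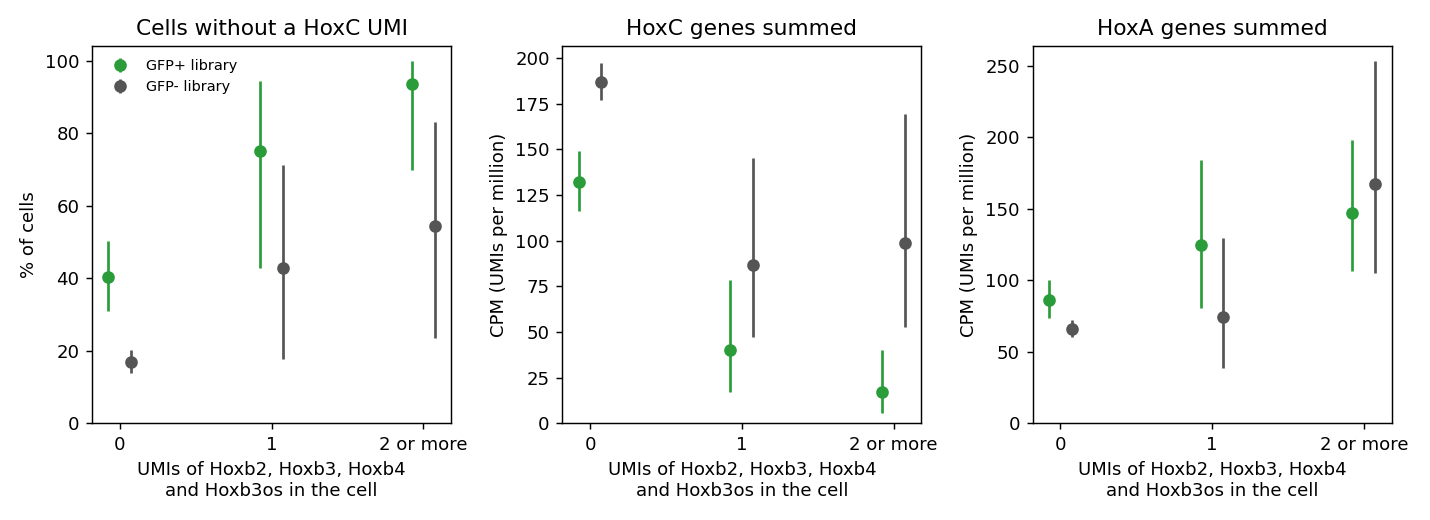
Cluster 3 cells split by their UMIs of Hoxb2, Hoxb3, Hoxb4 and Hoxb3os (0, 1, 2 or more): share without a Hoxc UMI (%), summed Hoxc CPM and summed Hoxa CPM, by library, with 95% counting intervals. From 0 to 2 or more Hoxb UMIs the GFP+ share without Hoxc goes from 40.4% to 93.8% and Hoxc from 132 to 17.1 CPM, while Hoxa goes from 86.4 to 147 CPM.

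Over all myogenic cells thinned to 5000 UMIs, 60.7% of 463 GFP+ cells (56.1 to 65.2) and 65.2% of 2345 GFP- cells (63.3 to 67.2) had at least 1 Hox UMI. Hoxa UMIs were seen in 31.5% and 31.0%, Hoxc UMIs in 37.6% (33.2 to 42.2) and 49.7% (47.6 to 51.7), and Hoxb UMIs in 3.89% and 1.36%. Unthinned, 83.2% of GFP+ and 91.4% of GFP- myogenic cells had a Hox UMI. As a background, 0 of 69 GFP+ macrophage-like cells had a Hox UMI at the same depth (upper exact binomial limit 5.21%) and 3 of 76 (3.95%) unthinned, with median depths before thinning of 20841 UMIs in the myogenic and 13996 in the macrophage-like cells. In the separate draw for Hoxa 1 of the 69 had a UMI, so the 0 holds for 1 draw only. In the GFP- library 9 of 44 macrophage-like cells (20.5%, 9.80 to 35.3) had one at that depth and 13 of 57 (22.8%) unthinned, with medians before thinning of 15517 UMIs in the myogenic and 8896 in the macrophage-like cells. The thinning left out 56 GFP+ and 123 GFP- myogenic cells.

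Mural-like cells, the Rgs5-positive contractile cells around small vessels, had a larger share of Hox UMIs at proximal positions, most of them Hoxb2. Their summed Hox level was 386 CPM (410 UMIs), against 233 CPM in GFP- myogenic cells, and positions 1 to 4, 5 to 8 and 9 to 13 made up 36.1% (31.4 to 41.0), 33.7% and 30.2% (25.8 to 34.9). Hoxb2 alone gave 96 of the 148 UMIs at positions 1 to 4. Positions 9 to 13 stood at 116.7 CPM (97.1 to 139.2), against 137.9 CPM (134.4 to 141.5) in GFP- myogenic cells, with overlapping intervals. The Hoxb genes accounted for 33.7% (29.1 to 38.5) of the Hox UMIs, where GFP- myogenic cells had 1.20%. Hoxb2 stood at 90.4 CPM (96 UMIs) in mural-like and 1.59 CPM (67 UMIs) in myogenic cells, 56.9-fold higher (41.2 to 79.0), Hoxb4 at 19.8 CPM (21 UMIs) and 0.664 CPM, 29.8-fold higher (16.1 to 54.4), and Hoxb3 at 8.47 and 0.545 CPM, 15.5-fold higher (6.33 to 34.9). Hoxb7, with 6 UMIs, and Hoxb8, with 5, were at least 79.4-fold and 66.2-fold higher than in myogenic cells, which had none and enter at a floor of 3 counts over all of them. These are few molecules in few cells, 2 cells for Hoxb7 and 3 for Hoxb8, and the counting intervals of the ratios begin at 46.8 and 36.4.
Hoxa7 stood at 41.4 and 20.3 CPM, a ratio of 2.04 (1.47 to 2.76), and Hoxc5 and Hoxd8 had ratios of 3.31 (1.39 to 6.79) and 3.22 (1.15 to 7.35). Hoxc11 was the 1 gene past the 2-fold rule in the other direction, with 1 UMI in mural-like cells and 548 in myogenic cells, a ratio of 0.07 (0.0018 to 0.41). Hoxc6, Hoxc8, Hoxc9 and Hoxc10 had ratios from 0.73 to 1.39, Hoxa10 one of 0.67 and Hoxc4 one of 0.74, and for each the interval included 1. By a 2-fold rule 9 of 19 Hox genes that passed the filter were higher in mural-like cells, against 20.1% of all genes, and 1 was lower, against 12.7%. Of the 9, Hoxb2, Hoxb3, Hoxb4, Hoxb7, Hoxb8 and Hoxd8 were under 2 CPM in myogenic cells and passed only through their mural-like level. Hoxc11 passed only through its myogenic level. The filter thus shaped these counts, and they carry no test. Meis2, a HOX cofactor, had 36 UMIs in mural-like cells and 25 in the GFP- myogenic ones, 33.9 and 0.593 CPM, with a ratio of 57.2 (33.4 to 99.4), and Tbx5 had 3 UMIs.
The 82 cells led by Rgs5, Il6 and Kcnj8 (cluster 14) and the 28 led by Myh11 (cluster 15) both expressed Hoxb2, at 82.2 CPM (64.5 to 103) and 132 CPM (83.5 to 198). Their summed Hoxc stood at 140 CPM (116 to 167) and 109 CPM (65.5 to 170). Pax7 stood at 14.6 and 28.6 CPM in these clusters, and the part of myogenic RNA in their Hoxc level was not tested.

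Macrophage-like cells, the Lyz2-positive immune cells, had few Hox transcripts in the GFP+ library. There 3 Hox UMIs were counted in 76 cells, 2.51 CPM (0.518 to 7.34), and none was of the Hoxc cluster. By the 2-fold rule 10 of the 11 Hox genes that passed the filter were lower than in GFP+ myogenic cells, against 33.9% of all genes, and none was higher, against 19.6%. Each of these 10 had 0 or 1 UMI in the macrophage-like cells and passed the filter only through its myogenic level. The count therefore adds nothing to the summed level. The remaining gene was Hoxb4, at 1.67 CPM (2 UMIs) in macrophage-like and 2.36 CPM in myogenic cells, a ratio of 0.71 (0.08 to 2.84). In the GFP- library 48 Hox UMIs were counted in 57 cells, 75.1 CPM (55.4 to 99.6), and 3 of these cells held 31 of them. Those 3 cells also held 62 of the 119 UMIs of Des, a muscle gene that stood at 186 CPM in GFP- and 6.70 CPM in GFP+ macrophage-like cells. Without these cells, chosen by their Hox counts, the GFP- level was 33.1 CPM (19.3 to 53.0), and the part of myogenic RNA in it was not tested. Hoxb4 differed from the other genes there: its 7 UMIs lay in 7 cells, 10.95 CPM (4.40 to 22.6) against 0.664 CPM in GFP- myogenic cells, and 2 of the 3 Hox UMIs of the GFP+ macrophage-like cells were also Hoxb4.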

How the data were processed

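The 2 libraries of 3′ (v3.1) droplet single-cell RNA were compared by sorted fraction, as the labels give it. The deposited matrices are raw UMI counts with empty droplets included, written by Cell Ranger 4 per the file headers; the submitters' processing notes name Cell Ranger, Seurat and the build mm10. No annotation release or counting setting is stated there. Free RNA can add UMIs to a cell, and overlap between genes can change the UMIs counted for a gene. In droplets of at most 100 UMIs, taken as empty, summed Hox stood at 147 CPM (205 UMIs) in the GFP+ library. In the GFP- library it stood at 187 CPM (629 UMIs). Free RNA was not removed from the counts.

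The barcode filter kept 1000 UMIs or more, 500 genes or more and a mitochondrial share up to 10%. Scrublet (scanpy 1.11.5) called 3 barcodes per library, which stayed in, so doublets were in effect not removed. Cells were clustered on 2000 variable genes, with 30 components, 15 neighbours and Leiden resolution 0.6. The Hox genes, the other listed genes, Pax3, and mitochondrial, ribosomal protein, haemoglobin and sex-linked genes were left out of these. Clusters that mixed cell types were split at resolution 0.2, a step added after the data were seen. A low-depth cluster of 3 GFP+ and 14 GFP- cells stayed unnamed and was left out. Cell type names were rebuilt from marker lists and do not come from the submitters.

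For each class of a library, UMIs were added up and scaled to CPM. Ratios carry exact conditional intervals, levels exact Poisson intervals and shares exact binomial (Clopper-Pearson) intervals, all at 95% and for counting error only; no p-value was computed. Thinning drew each cell's UMIs without replacement to 5000 (10000 within clusters), leaving out shallower cells; each gene set had its own draw, so shares of different sets come from different draws. The calculations were tested on simulated counts. The single values of 1 Hox gene and 1 cofactor are not reported here, though they enter the sums and counts. Hox genes with at least 20 UMIs are named, and values by cluster are given for genes with at least 200, with those of less abundant genes, such as Hoxb2 to Hoxb4 in clusters 3 and 5, added after their values were seen; further genes are fixed ones or the largest ratios per list at a mean of at least 2 CPM. The members and lists, and the comparison in cluster 3, were chosen with earlier results of these data known. GENCODE M21 and RefSeq promoters (22 of 39 Hox genes matched) are on the files' build. Software was scipy 1.17.1, igraph 0.11.9, scikit-learn 1.9.0, numpy 2.4.6, pandas 2.3.3 and matplotlib 3.10.9 under Python 3.11.15, and edgeR 4.0.16 under R 4.3.3 for normalization factors only.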

Additional observations from a re-analysis of the deposited data

Results flagged for a closer look

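For 3 genes the libraries stood apart in opposite directions in different myogenic clusters, with each interval on its own side of 1; the difference between clusters was not tested. Hoxa3 had a GFP+ to GFP- ratio of 2.60 (12 and 14 UMIs) in cluster 3 and of 0.145 (1 and 22 UMIs) in cluster 1. Hoxa7 had ratios of 2.08 in cluster 3 and 0.584 in cluster 0 (22 and 175 UMIs). Hoxc6 had ratios of 0.486 in cluster 3 and 2.08 in cluster 10, the cluster of interferon-response genes, where 23 GFP+ UMIs came from 18 cells.

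The 8 endothelial-like cells of the GFP- library gave 5 UMIs of Hoxb6 and 4 UMIs of Hoxb7, genes that had none in myogenic cells of either library.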

How the results depend on the processing

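No paired analysis was possible because each fraction has 1 library. Among myogenic cells, the count of Hox genes higher in the GFP+ library by 1.5-fold or more, 1, became 3 with totals without mitochondrial, ribosomal protein and haemoglobin genes, 2 with TMM factors, without called doublets, at resolution 1.0 or without cluster 6 (added after seeing the data), and 7 without the filter on low genes; the count lower, 1, became 9 without that filter and 0 at 2-fold. With totals without mitochondrial, ribosomal protein and haemoglobin genes the summed level was 300.9 CPM in GFP+ myogenic, 340 CPM in GFP- myogenic and 474.1 CPM in mural-like cells. With a 5% mitochondrial limit positions 5 to 8 and 9 to 13 made up 31.7% and 60.5% of GFP- myogenic Hox UMIs. Thinned to 3000 UMIs and unthinned, the share of cells with any Hox UMI was 42.0% and 83.2% (GFP+) and 49.5% and 91.4% (GFP-), with a Hoxa UMI 19.8% and 65.5%, and 20.7% and 61.8%, and with a Hoxc UMI 23.6% and 59.0%, and 35.8% and 81.1%. Among genes at least 1.5-fold apart, direction turned for Hoxb3 with clusters weighted equally (0.424). In single clusters it turned, among others, for Hoxb2 in cluster 0 (0.422) and Hoxc11 in clusters 1 (1.16) and 5 (1.07). The GFP+ library had 0 UMIs of Hoxb2 in cluster 2, against 12, and of Hoxb3 and Hoxb4 in cluster 0, against 8 and 7. Hoxb3os had a ratio of 0.465 in cluster 0, and 0 and 4 UMIs in cluster 2. The intervals of these Hoxb2, Hoxb3, Hoxb4 and Hoxb3os ratios in single clusters included 1, and the cause was not tested. Genes with smaller ratios also turned in single clusters, Hoxc8 in cluster 2 (1.34), Hoxc6 in cluster 10 (2.08) and Hoxa7 in cluster 0 (0.584) among them. Over the settings for all myogenic cells Hoxa3, Hoxa4, Hoxa6, Hoxa10, Hoxb3, Hoxc5 and Hoxc6 fell on both sides of 1. Genes at or under 20 UMIs are limited by depth.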

Other observations

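Small cell groups, each of fewer than 20 cells per library, held Hox transcripts that entered no comparison. The 8 endothelial-like cells had 49 Hox UMIs, 440 CPM (326 to 582), of which 30 were Hoxb (Hoxb2 to Hoxb9), 12 Hoxa, 4 Hoxc and 3 Hoxd. Hoxb4 had 11 UMIs in 4 cells and Hoxb6 5 UMIs in 4 cells, while Hoxc10 had 1. The 18 glial-like cells had 9 Hox UMIs, 80.5 CPM (36.8 to 153), and none of Hoxc10. The fibro-adipogenic-like cells, connective tissue progenitors, had 51 UMIs in 6 GFP+ cells, 247 CPM (184 to 325), and 35 UMIs in 8 GFP- cells, 321 CPM (224 to 447), with Hoxc8 at 13 UMIs in the first and Hoxc10 at 11 UMIs in the second.

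Genes outside the Hox clusters also differed between GFP+ cells of cluster 3 with and without Hoxc. Among genes with a mean of at least 20 CPM, the 10 leading ones in cells without Hoxc included Fam83a, with 62 and 6 UMIs (12.8, 5.57 to 36.3), and the collagen genes Col15a1, with 50 and 14 UMIs (4.43, 2.41 to 8.68), and Col8a1, with 82 and 25 UMIs (4.07, 2.57 to 6.65). The imprinted noncoding RNAs Meg3 and Rian were 2.94 (2.39 to 3.63) and 2.45 times (1.66 to 3.66) as high. The leading genes in the other direction included R3hdml, with 6 and 60 UMIs (0.124, 0.0438 to 0.286), Spp1, which encodes osteopontin (0.317, 0.247 to 0.403), and Mgp, which encodes matrix Gla protein (0.366, 0.310 to 0.431). The ratios were ranked on the cells they describe and carry no test. Six2 stood at 15.2 CPM in cells without and 28.4 CPM in cells with Hoxc (0.537, 0.279 to 0.989).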
